A study of Homo sapiens with 12 samples.

Results

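RNA sequencing counts of the 6 control libraries of 501Mel cells, out of 12 libraries in the series, were compared with each other to describe the baseline transcriptome of this line and the genes that stood at different levels in the 2 sets of controls. 501Mel is a human melanoma line, grown here in RPMI 1640 medium with serum. The first set (siCtrl1, siCtrl2 and siCtrl3) is tabulated with 3 libraries of cells silenced for CHD4, and the second set (siCtrl4, siCtrl5 and siCtrl6) with 3 libraries of cells silenced for CHD3. Members were taken by their column names in the 2 count tables and joined by Ensembl gene identifier. Control cells received siRNA with Lipofectamine RNAiMax and were collected 72 h later, as the silenced cells were, and cDNA from a few nanograms of total RNA was linearly amplified before library preparation. The labels do not say whether both sets received the same control siRNA, when each set was grown or sequenced, or whether the 3 libraries of a set came from separate cultures. The p-values below therefore measure the spread between libraries, which may be technical, and the set, its control siRNA, its handling and its table cannot be told apart. All libraries represent a single cell line.

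Melanoma cells keep much of the transcription programme of the melanocyte. MITF and SOX10, together with PAX3 and TFAP2A, drive the genes of melanin synthesis and of the melanosome, the organelle in which pigment is made. Melanoma cells can also take an undifferentiated, invasive state, marked by the receptors AXL and NGFR and by secreted and matrix-linked products such as CYR61 and CTGF. These products are known targets of the TEAD factors and their partners YAP and TAZ, and inflammatory cytokine genes such as IL8 are known targets of the AP-1 and NF-kB factors.

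Total counts ranged from 38573214 to 94946401 over the 6 control libraries, and 29152 genes had counts in both tables. Levels are given below in CPM, counts for each 1000000 counts of the library, scaled by TMM factors over the 12 libraries. Of the joined genes, 15774 passed the count filter and were tested between the control sets with the edgeR quasi-likelihood test. Calls required an adjusted p below 0.05 together with a log2 difference, always first minus second set, beyond 1 in either direction. siCtrl3 stood apart from the other control libraries. Its TMM factor was 0.788 against 0.987 to 1.11 in the other 5, and its log2 CPM correlated across genes with those of the second set at 0.891 to 0.935 (Pearson, genes are not independent replicates), against 0.95 to 0.972 for siCtrl1 and siCtrl2. siCtrl1 and siCtrl2 correlated at 0.989 with each other. Results are therefore given below also without siCtrl3 where it matters. The tables were not counted alike: 2018 of the joined genes had an implied gene length that differed by over 1% between them. Of the genes tested, 1407 were of this kind, and 12.5% of them were called against 14% of the genes of equal length.

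The baseline was that of a pigmented melanoma cell. Of 16286 protein-coding genes joined, 10840 had a mean level of 1 or more in TPM-like units (counts per kb of the gene length implied by the deposited files, scaled to the same total in each library), 2242 of 100 or more and 102 of 1000 or more. PMEL, which encodes the amyloid scaffold of the melanosome, had the highest level of these genes, 9180 ± 1510 in the first set and 5590 ± 344 in the second (mean ± SD, n = 3). TYRP1, a melanosomal enzyme of melanin synthesis, ranked 3 at 4930 ± 2080 and 6160 ± 660. Between and beside them stood genes of glycolysis, the cytoskeleton, translation and protein folding. ENO1, GAPDH, ALDOA and PKM (glycolysis), ACTB and ACTG1 (actins), EEF2, EEF1A1, EIF4G2, RPS18 and RPS4X (translation), and the chaperone genes HSPA8 and HSP90AA1 were among the 20 highest. Others were FTH1, CTSB, NPM1 and TFRC, a ferritin subunit, a lysosomal protease, a nucleolar chaperone and the transferrin receptor. The order depends on the length used: with the union of exons, 11 of these 20 stayed among the 20 highest, PMEL at rank 2 and TYRP1 at rank 5, while TFRC moved to rank 536. For FTH1 and ALDOA over 20% of the exon bases also belong to a neighbouring annotated gene, and actin, GAPDH and ribosomal protein genes have many near-identical pseudogenes, so their levels are uncertain. SPARC, a matrix-binding glycoprotein, followed at rank 21.

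None of the lineage factors was called between the sets. MITF measured 737, 614 and 272 CPM in the first set and 792, 780 and 614 CPM in the second, a log2 difference of -0.44 ± 0.35 (SE, edgeR adjusted p = 0.362). The sets overlapped, and siCtrl3 was the lowest of the 6. SOX10 measured 595, 800 and 2010 CPM against 363, 429 and 519 CPM, a log2 difference of 1.38 ± 0.45 (edgeR adjusted p = 0.0676). Here the sets did not overlap, but siCtrl3 carried much of the gap, and without it the difference was 0.65 (adjusted p = 0.0277). PAX3 stood at 50.9 to 62.4 CPM and TFAP2A at 114 to 148 CPM over the 6 libraries. Of 15 lineage genes tested, 0 were called, with a median log2 difference of 0.20 beside 0.03 over all genes tested. Over all genes tested, 6.5% were called higher in the first set and 7.4% in the second, a background against which 0 of 15 is read. Without siCtrl3, or with an offset that takes out each library's trend with exonic GC content (the GC offset), 1 of the 15 was called, higher in the first set.

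Among 24 pigmentation and melanosome genes tested, 1 was called higher in the first set and 2 in the second (median log2 difference -0.11). TYR, the rate-limiting enzyme of melanin synthesis, measured 912, 702 and 662 CPM and 844, 733 and 703 CPM in the sets, which overlapped, with a log2 difference of -0.01 ± 0.21 (edgeR adjusted p = 0.973). MLANA, a melanosome protein, stood at 623 to 1030 CPM, and DCT, the dopachrome tautomerase, at 298 to 803 CPM, both with overlapping sets. PMEL was called higher in the first set, at 8380, 8180 and 13800 CPM against 4790, 4910 and 5370 CPM (log2 difference 1.01 ± 0.26, edgeR adjusted p = 0.0389). ABCB5, a transporter that marks subsets of melanoma cells, was called higher in the second, at 69, 60.2 and 38.1 CPM against 195, 172 and 154 CPM (-1.65 ± 0.27, 0.0135). The remaining one was BCL2A1, a survival gene under MITF control, at 8.6, 9.85 and 15.5 CPM against 27.7, 24.8 and 20 CPM (-1.1 ± 0.29, 0.0423). With the GC offset PMEL had a log2 difference of 0.61 and BCL2A1 one of -0.38, and neither was then called. ABCB5 lost its call without siCtrl4 or siCtrl5 (adjusted p up to 0.0863), PMEL without any of siCtrl2 to siCtrl6 (up to 0.156), and BCL2A1 in 5 of the 6 fits that left out a library, all but that without siCtrl3 (up to 0.168).

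**Figure D1:**
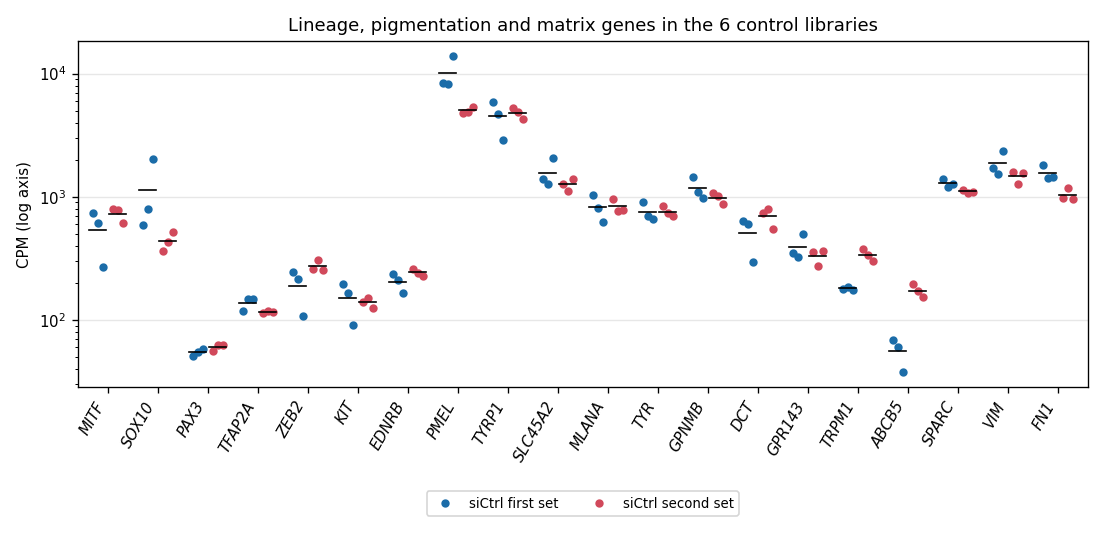
CPM (log axis) of 20 lineage, pigmentation and matrix genes in the 3 first-set (blue) and 3 second-set (red) control libraries, with a bar at each mean. MITF and TYR overlap between the sets, PMEL, ABCB5 and TRPM1 do not, and siCtrl3 (rightmost blue point) departs from the other libraries at MITF and SOX10.

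Defining markers of other cell types were low. The summed level of 10 fibroblast genes was 9.56 to 14.2 CPM in the first set and 14.8 to 16.9 CPM in the second, that of 10 blood cell genes 2.38 to 3.09 and 4.43 to 5.30 CPM, and that of 9 endothelial genes 3.84 to 17.9 and 2.50 to 4.35 CPM. The 8 keratinocyte genes summed to 17.7 to 24.4 and 26.9 to 44 CPM. The 7 epithelial genes summed to 18.7 to 33.5 CPM in the first set and 57.9 to 75.5 CPM in the second. Single markers passed the test in these lists: KRT15 (keratinocyte), ACTA2 (fibroblast), ITGAX (blood cells) and ESRP1 (epithelial) were each called higher in the second set, with log2 differences from -2.97 to -1.29. ESRP1 alone measured 8.1 to 16.7 CPM and 49.9 to 68.9 CPM, and lost its call without siCtrl4 or siCtrl5 (edgeR adjusted p up to 0.0747). The other 3 lost theirs without siCtrl2, siCtrl4, siCtrl5 or siCtrl6 (up to 0.103), and ACTA2 shares 35.9% of its exon bases with another gene. None of the listed markers with counts was at 0 in all 6 control libraries. This leaves out markers without counts in both tables: of 12 keratinocyte genes listed 8 had counts, and of 15 blood cell genes 10. Some of the rest were at the floor. LOR and MS4A1 each had 0, 0 and 0 counts in the first set and 0, 0 and 1 in the second. Among the keratins of simple epithelia, KRT8 measured 0.219, 3.62 and 11.2 CPM in siCtrl1, siCtrl2 and siCtrl3 and 0.784, 0.804 and 1.38 CPM in the second set, while KRT7 measured 0.0329, 1.1 and 4.61 CPM and 0.122, 0.128 and 0.142 CPM. Raw counts in siCHD4 and siCHD3 were 406, 215, 1468 and 17, 35, 12 for KRT8, and 243, 70, 875 and 1, 12, 0 for KRT7. The part of these RNAs in the differences below was not tested. CSPG4, a marker of many melanomas, was near silent at 0.166 to 0.788 CPM, while the melanoma antigen PRAME stood at 487 to 1470 CPM and the glial and melanocytic gene S100B at 22.1 to 40.1 CPM.

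The genes at the centre of the study were described next. CHD4, the helicase subunit of the nucleosome remodelling and deacetylase complex NuRD, measured 589, 531 and 610 CPM in the first set and 287, 313 and 334 CPM in the second. The sets did not overlap, and the log2 difference of 0.88 ± 0.20 had an edgeR adjusted p of 0.0258 but stayed under the fold threshold. CHD4 shares 46.9% of its exon bases with other annotated genes, so its count is uncertain. CHD3 measured 108, 113 and 140 CPM against 74, 90.4 and 89.7 CPM (0.50 ± 0.23, adjusted p = 0.139). Of 15 NuRD subunits tested, MTA1 and GATAD2A were called higher in the first set (log2 differences 1.75 and 1.25), beside 6.5% of all genes tested. MTA1 measured 34.7, 55.6 and 79 CPM against 12.4, 19.6 and 18.3 CPM, and with the GC offset its difference was 0.69 and that of GATAD2A 0.56, neither of them called. Both lost their calls without siCtrl2, siCtrl4, siCtrl5 or siCtrl6 (adjusted p up to 0.146). The PADI family, arginine deiminases, was near silent in both sets. PADI3 had 1, 2 and 1 counts in the first set and 5, 9 and 12 in the second, and PADI1 had 18, 17 and 17 and 15, 29 and 27 counts, a log2 difference of -0.82 ± 0.45 (edgeR adjusted p = 0.211) that was called with the GC offset at -1.47 (0.0122) and without siCtrl3 at -1.25 (0.049). The count ratio of PADI3, second over first set and scaled by library size, was 9.28 (exact 95% interval 3.22 to 36.6, counting error only).

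The comparison of the sets over all genes called 1025 genes higher in the first set (6.5% of those tested) and 1168 higher in the second (7.4%). These shares, or 4.15% and 9.55% with the GC offset, are the background for the counts of listed genes below. At an unadjusted p under 0.05 stood 6040 genes, and 7160 genes (45.4% of those tested) had sets that did not overlap. Calls differed by gene type. Of 12610 protein-coding genes, 7.22% were called higher in the first set and 5.76% in the second, while of 1765 long noncoding genes 3.8% and 14.4% were. The median log2 difference was 0.1 for protein-coding and -0.27 for long noncoding genes, and with the GC offset 0 and -0.36. All of the 2193 called genes kept their sign without siCtrl3 and with the GC offset, but the number of calls changed with the library left out. Such a fit also has fewer libraries to test with. A lost call, here and elsewhere in the text, therefore need not mean that the difference rests on that library. Over the 6 such fits the log2 difference of SCD stayed within 1.78 to 1.89, while that of BTBD2 ran from 2.29 to 3.69. Both genes lost their calls in some of them. Without siCtrl3, 922 genes (5.52% of those tested) were called higher in the first set and 1739 (10.4%) in the second, and 757 and 1033 of the original calls remained. Without siCtrl4 only 9 and 26 genes were called, without siCtrl5 3 and 26, without siCtrl6 129 and 268 and without siCtrl2 262 and 307. Without siCtrl1 the counts were 2695 and 1754. Calls made in the full comparison and in each of the 6 fits without a library numbered 3 for the first set and 21 for the second.

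**Figure D2:**
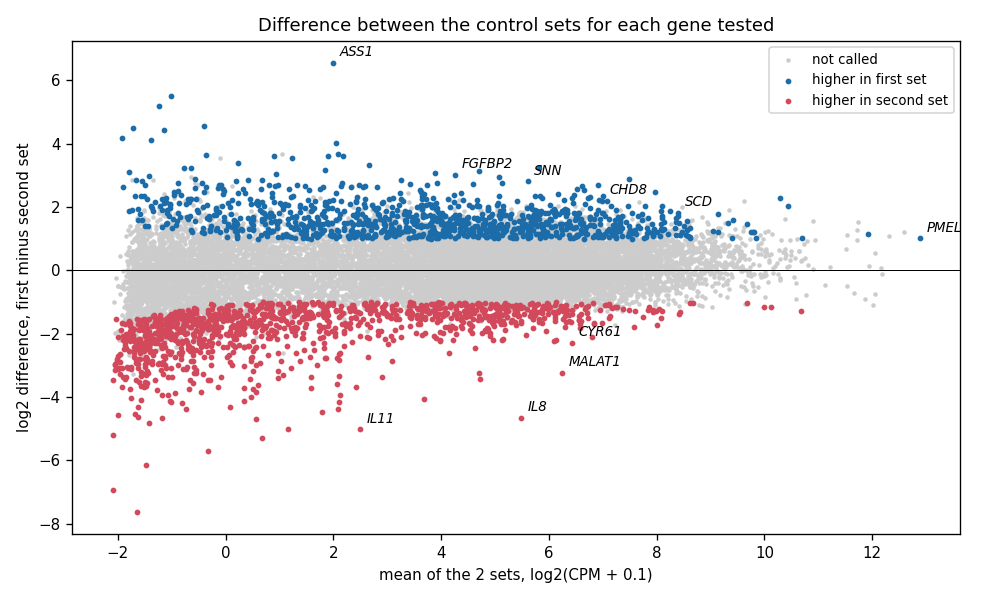
Log2 difference (first minus second set) of each gene tested against its mean level in the 2 sets, log2(CPM + 0.1), with called genes in colour. IL11 and IL8 lie far below zero at -5.02 and -4.67, FGFBP2 and SNN lie at 3.01 and 2.81, and the called genes spread over the whole range of levels.

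GC content moved with the difference between the sets. Exonic GC was known for 97.6% of the genes tested. The median log2 difference rose in steps from -0.66 in the lowest of 10 equal bins of GC content (27.8% to 38.6%) to 1.01 in the highest bin (60.4% to 78.9%). In the lowest bin 5 genes were called higher in the first set and 267 in the second, and in the highest bin 210 and 24. Across 15399 genes the difference correlated with GC at a Spearman rho of 0.56 (Pearson r 0.51), given as a description since genes share their libraries. siCtrl3 showed the steepest slope. Its median deviation from the mean of the 6 libraries went from -0.97 in the lowest bin to 1.37 in the highest, while siCtrl4 went from 0.50 to -0.89. The first set was not uniform, since siCtrl2 went from -0.13 to 0.36 and siCtrl1 from -0.01 to -0.40. Without siCtrl3 the correlation was 0.34, with medians from -0.44 to 0.38. A fit with an offset for the GC trend of each library left medians between -0.08 and -0.01. The offset was fitted to these same libraries, so flat medians follow from it and do not test the part of GC content. It lowered the biological coefficient of variation from 0.309 to 0.191, but leaving out siCtrl3 without any offset gave a similar 0.199. The fit with the offset called 655 genes (4.15%) higher in the first set and 1506 (9.55%) in the second. Of the original calls, 461 and 850 remained, and 432 and 821 remained both with the offset and without siCtrl3. The share of calls that were higher in the first set was thus 46.7% in the main comparison and 30.3% with the GC offset.

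**Figure D3:**
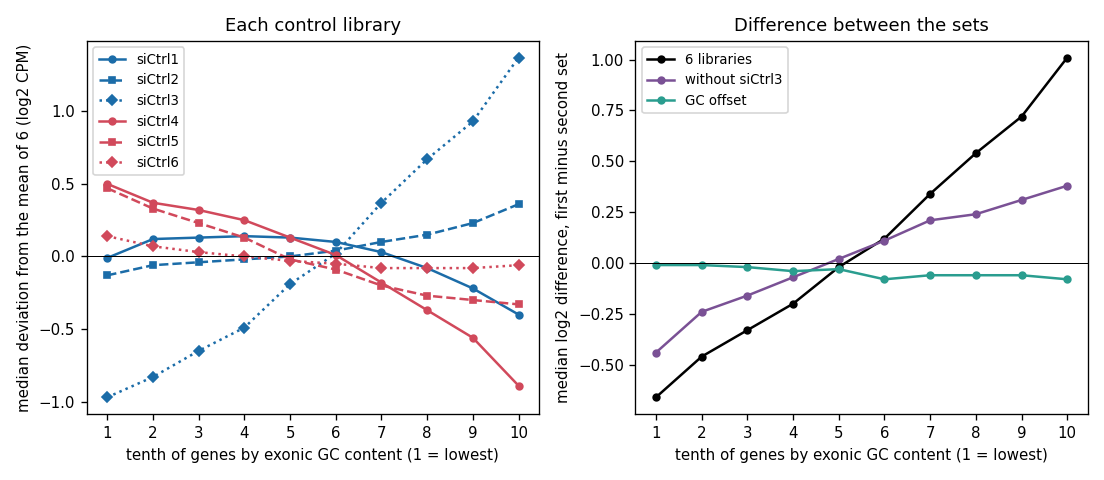
Left, median deviation of each control library from the mean of the 6 (log2 CPM) by bin of exonic GC content (10 bins), with first-set libraries in blue and second-set libraries in red. Right, median log2 difference between the sets, which runs from -0.66 to 1.01 with 6 libraries, from -0.44 to 0.38 without siCtrl3 and stays between -0.08 and -0.01 with the GC offset.

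Called members of the cytokine list (6 of 14 tested) and of the undifferentiated state list (7 of 21) were all higher in the second set, while most members of both were not called. IL11, a cytokine of the IL-6 family, measured 0.263, 0.430 and 0.309 CPM in the first set and 10.3, 10.7 and 11.4 CPM in the second. The log2 difference was -5.02 ± 0.30 (edgeR adjusted p = 0.00133). IL8, a neutrophil chemokine, measured 3.07, 1.55 and 5.60 CPM against 91.9, 87.3 and 77.9 CPM (-4.67 ± 0.49, 0.00482). Both genes had sets far apart, with all 3 libraries of the second set above all 9 other libraries of the series, and IL8 stood at 18.4 ± 1.55 CPM in the siCHD3 libraries of the same table. On GRCh37, IL11 lies on the minus strand at chr19:55875750-55881831 and IL8 on the plus strand at chr4:74606236-74609433. IL24 measured 6.04, 3.98 and 3.52 CPM against 52.3, 41.7 and 49.9 CPM (-3.42 ± 0.29, 0.00466), with 41.6% of its exon bases shared with another gene. IL1A had 0, 0 and 0 counts against 15, 13 and 9, at least 17.6-fold higher in the second set over a floor of 3 counts for the group. Of 14 cytokine and chemokine genes tested, 0 were called higher in the first set and 6 in the second, with a median log2 difference of -1 beside 0.03 over all genes. The 6 were IL8, IL24, IL1A, IL1B, CXCL2 and LIF, and with the GC offset 11 of 14 were called. IL11 was not on that list and was named by the size of its difference.

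CYR61, CTGF, AXL and ITGA5 were also called higher in the second set. CYR61 and CTGF encode secreted matricellular proteins. CYR61 measured 32.7, 26.5 and 29.7 CPM in the first set and 136, 145 and 149 CPM in the second (-2.28 ± 0.22, edgeR adjusted p = 0.00469). CTGF measured 33.7, 25.2 and 26.3 CPM against 90.3, 88.4 and 89.1 CPM (-1.66 ± 0.23, 0.00883). Neither gene's sets overlapped, and the silenced libraries lay with the first set, at 45.4 ± 4.45 and 34.3 ± 11.4 CPM for CYR61. AXL, a receptor tyrosine kinase, measured 0.230, 1.02 and 1.07 CPM against 7.99, 7.55 and 7.48 CPM (-3.35 ± 0.53, 0.0125). ITGA5, the fibronectin receptor subunit, measured 0.581, 0.630 and 0.928 CPM against 5.34, 5.55 and 5.79 CPM (-2.99 ± 0.29, 0.00469). In each of these genes the 3 second-set libraries lay close together and above every other library. NGFR, a neural crest receptor with 27.2% shared exon bases, had a difference of -3.84 ± 0.43 and DKK1, a secreted WNT inhibitor, one of -4.17 ± 0.27. Of 21 undifferentiated and invasive state genes tested, 0 were called higher in the first set and 7 in the second (median -0.41), among them AXL, NGFR, CYR61, CTGF, INHBA and NRP1. Abundant members of that list did not pass the test: VIM stood at 1270 to 2340 CPM and FN1 at 961 to 1820 CPM, with log2 differences of 0.34 and 0.58, and CD44 and EGFR had differences of 2.66 and 2.19 (adjusted p = 0.102 and 0.115).

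ANKRD1, a nuclear ankyrin repeat protein, measured 0.647, 0.229 and 0.225 CPM in the first set and 8.23, 9.45 and 6.17 CPM in the second (-4.38 ± 0.46, edgeR adjusted p = 0.00482). It stood at 5.38 ± 1.2 CPM in siCHD4 and 0.613 ± 0.371 CPM in siCHD3, so here the second set did not stand apart from all other libraries. The promoter windows of 4 of these genes are shown, from 250 bases before to 50 bases after the RefSeq start (GRCh38.p14), because 2 short sequence motifs stand in them. Capitals mark AP-1 letters (TGACTCA or TGAGTCA, each the reverse complement of the other) in IL8 and IL11, and TEAD letters (GGAATG or its reverse complement CATTCC) in CTGF and ANKRD1.
IL8 (CXCL8 in RefSeq), chr4:73740319-73740618, plus strand: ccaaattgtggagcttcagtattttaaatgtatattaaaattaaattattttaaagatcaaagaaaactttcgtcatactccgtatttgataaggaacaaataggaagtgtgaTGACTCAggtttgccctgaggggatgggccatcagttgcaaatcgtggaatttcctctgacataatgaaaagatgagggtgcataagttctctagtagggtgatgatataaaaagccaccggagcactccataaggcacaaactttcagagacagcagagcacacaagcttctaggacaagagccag
IL11, chr19:55370414-55370713, minus strand: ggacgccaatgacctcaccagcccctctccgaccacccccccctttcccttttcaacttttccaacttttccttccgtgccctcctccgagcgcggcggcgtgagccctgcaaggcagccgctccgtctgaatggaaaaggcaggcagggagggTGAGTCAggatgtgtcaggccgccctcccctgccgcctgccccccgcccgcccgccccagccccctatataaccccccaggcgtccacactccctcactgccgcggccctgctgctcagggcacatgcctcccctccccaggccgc
CTGF (CCN2 in RefSeq), chr6:131951323-131951622, minus strand: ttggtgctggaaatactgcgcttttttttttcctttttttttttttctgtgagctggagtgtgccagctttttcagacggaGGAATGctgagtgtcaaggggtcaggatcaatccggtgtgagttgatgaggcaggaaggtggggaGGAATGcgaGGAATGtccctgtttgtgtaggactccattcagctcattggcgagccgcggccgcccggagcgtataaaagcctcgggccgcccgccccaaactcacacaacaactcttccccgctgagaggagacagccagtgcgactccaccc
ANKRD1, chr10:90921038-90921337, minus strand: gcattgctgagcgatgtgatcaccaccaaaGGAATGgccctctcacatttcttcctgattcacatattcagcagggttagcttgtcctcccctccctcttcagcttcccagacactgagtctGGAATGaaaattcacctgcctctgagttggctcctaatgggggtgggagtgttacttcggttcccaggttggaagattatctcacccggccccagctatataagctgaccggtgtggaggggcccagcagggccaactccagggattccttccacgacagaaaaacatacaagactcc
These windows hold 1 AP-1 match each in IL8 and IL11, 3 TEAD matches in CTGF and 2 in ANKRD1. Over all 35116 RefSeq promoter windows of this length, 4.95% held the AP-1 letters and 14% the TEAD letters. These 4 windows were chosen because they hold a match. Of the 16 genes named above as higher in the second set from IL11 to ANKRD1, 12 had a RefSeq window, of which 4 held the AP-1 letters, 4 the TEAD letters and 5 neither (AXL, CXCL2, IL1B, IL24 and INHBA). A match is a description of letters and was not tested as a binding site.

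Of the genes named above as higher in the second set, IL11, IL8, IL24, DKK1, CYR61, ITGA5 and ANKRD1 kept their calls in each of the 6 fits without a library and with the GC offset. AXL, CTGF, INHBA and IL1A lost theirs without siCtrl4 or siCtrl5 (adjusted p up to 0.0837), NGFR without siCtrl5 (0.0555), and NRP1, CXCL2, IL1B and LIF without siCtrl2, siCtrl4, siCtrl5 or siCtrl6 (up to 0.152). The largest differences in this direction also included DIRAS3, a RAS-like GTPase gene, with 5 counts over the first set and 194 over the second, a ratio of 55.4 (exact 95% interval 23.3 to 173, counting error only). KRT81 (a hair keratin with near-identical relatives), EID3, GABRR2 (a GABA receptor subunit), IGFN1 and FAM151B had log2 differences from -4.69 to -3.94, and SLAMF7 and GLIPR1 of -3.70 and -3.76. All 8 of these kept their calls in each fit without a library, but GLIPR1 shares 24.4% of its exon bases with another annotated gene. C10orf54, SNORD3A and the pseudogenes ANKRD19P and PDCL3P4 lay at -4.38 to -3.84 and lost theirs without siCtrl5, all but C10orf54 also without siCtrl4, and SNORD3A also without siCtrl2 or siCtrl6 (adjusted p up to 0.132).

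Immediate early genes were split. Of 20 tested, FOSB, EGR2, EGR3 and ATF3 were called higher in the second set (log2 differences -1.97 to -1) and JUND and KLF2 in the first (2.43 and 1.54), with a median of -0.52. FOSB, a component of AP-1, measured 2.13, 2.11 and 4.02 CPM against 7.23, 7.95 and 9.97 CPM, and JUND, another, 22.4, 31.8 and 49.3 CPM against 7.64, 5.46 and 6.05 CPM. The sets did not overlap in either gene. With the GC offset 0 were called higher in the first set and 11 in the second. The exons of JUND have a GC content of 69.9%. The ERK feedback genes DUSP5, SPRY2 and PHLDA1 were called higher in the second set at -1.30 to -1.08, out of 16 of their list tested. The median of that list was -0.01, so its members did not move together. Calls of FOSB, EGR2, DUSP5, SPRY2 and PHLDA1 were lost without siCtrl2, siCtrl4, siCtrl5 or siCtrl6 (adjusted p up to 0.105), those of ATF3 and KLF2 without any of siCtrl2 to siCtrl6 (up to 0.163), and those of EGR3 and JUND without siCtrl4 or siCtrl5 (up to 0.0792).

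Another group of genes was low in the second set beside the other 9 libraries. FGFBP2, a secreted protein of the fibroblast growth factor binding family, measured 33.6, 35.5 and 32.2 CPM in the first set and 3.80, 3.82 and 4.94 CPM in the second. The siCHD4 libraries stood at 34.4 ± 2.92 CPM and the siCHD3 libraries at 35 ± 2.31 CPM. The log2 difference between the control sets was 3.01 ± 0.24 (edgeR adjusted p = 0.00466). SNN, a small membrane protein, measured 89.2, 91.3 and 75.1 CPM against 10.2, 13.9 and 12.3 CPM (2.81 ± 0.25, 0.00466), with 101 ± 4 and 85.5 ± 10.3 CPM in the silenced groups. In both genes the second set lay far below all other libraries. On GRCh37, FGFBP2 lies on the minus strand at chr4:15961868-15970932 and SNN on the plus strand at chr16:11762311-11773008.

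CHD8, a chromatin remodeller of the same helicase family as CHD4, measured 241, 194 and 193 CPM in the first set and 44.6, 47.8 and 43.4 CPM in the second (2.2 ± 0.22, edgeR adjusted p = 0.00469). NUTF2, a nuclear transport factor, measured 174, 173 and 185 CPM against 42.5, 30.7 and 34.4 CPM (2.30 ± 0.23, 0.00469), with implied lengths of 593 and 856 bases in the first and second table. EMC10, a subunit of an endoplasmic reticulum membrane complex, measured 5.14, 8.62 and 9.11 CPM against 0.294, 0.676 and 0.404 CPM (4.02 ± 0.41, 0.00469). For each of these the sets were separate and the silenced libraries lay above the second set. MARCH8, KIAA1671, ENPP2 and TMEM62 were also among the genes with the smallest adjusted p, at log2 differences of 2.25 to 3.40. FGFBP2, SNN and EMC10 were the 3 genes higher in the first set that kept their call in each fit without a library. CHD8 lost its call without siCtrl4 or siCtrl5 (adjusted p up to 0.054), at differences of 2.13 to 2.27 over the fits without a library, and NUTF2, MARCH8, KIAA1671, ENPP2 and TMEM62 without siCtrl5 (up to 0.0573). All of them were called with the GC offset.

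In all, 103 of the genes tested (0.653%) had the 3 second-set libraries at least 1 log2 unit away from each of the 9 other libraries. Of these, 56 were called higher in the first set and 46 in the second. Genes for which the whole first table (siCtrl1 to siCtrl3 and siCHD4) lay that far from the whole second table numbered 34 (0.216%), of which 15 were called higher in the first set and 19 in the second. Among the genes called between the control sets, 77.9% of those higher in the first set and 80.2% of those higher in the second had the same sign of difference between siCHD4 and siCHD3, beside 68.4% and 73.6% of all genes tested with these signs. The silencing and the table cannot be told apart in those libraries.

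**Figure D4:**
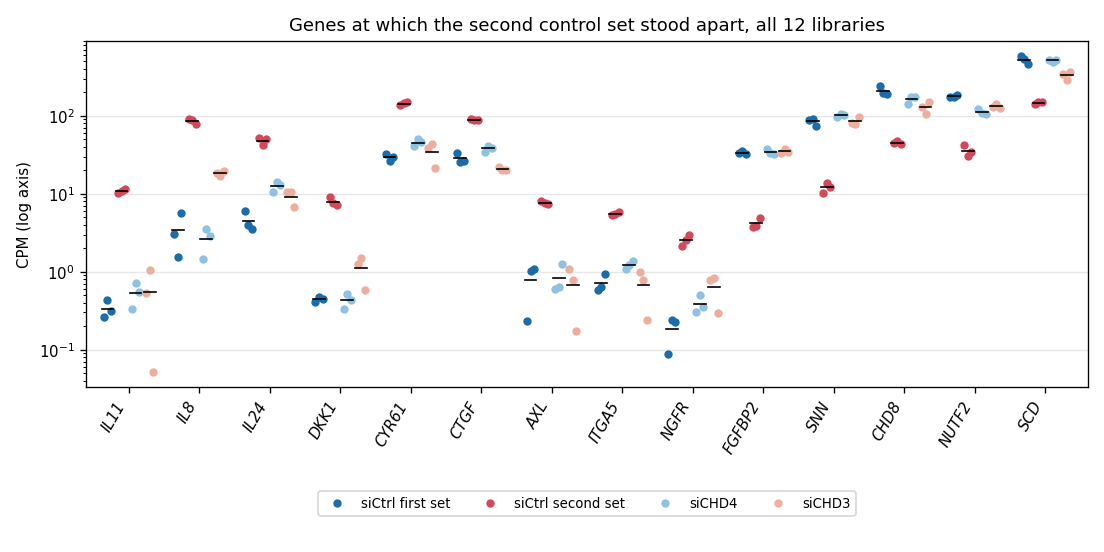
CPM (log axis) of 14 genes in all 12 libraries, grouped by gene, with a bar at each group's mean. The red second-set points lie above all others from IL11 to NGFR and below all others from FGFBP2 to SCD, for example at 10.3 to 11.4 CPM for IL11 and 3.80 to 4.94 CPM for FGFBP2.

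The genes with the largest differences in favour of the first set were mostly rich in GC. ASS1, the argininosuccinate synthase, measured 0.241, 5.14 and 17.6 CPM in siCtrl1, siCtrl2 and siCtrl3 and 0.0490, 0.0913 and 0.0950 CPM in the second set, a log2 difference of 6.55 ± 1.46 (edgeR adjusted p = 0.0263). The sets did not overlap, but the first set itself spread widely, with siCtrl1 lowest and siCtrl3 highest as for KRT8 and KRT7, and the call was lost without any of siCtrl2 to siCtrl6 (adjusted p up to 0.131). ASS1 had 380, 415 and 1218 counts in the siCHD4 libraries and 1, 5 and 2 in the siCHD3 libraries. AEBP1, SEMA6B (a semaphorin), LINGO1, NRTN (neurturin), FAM171A2, EVI5L, BTBD2 and HCN2 (a cation channel) lay at 3.14 to 3.67 with an exonic GC content of 62.7% to 73.8%. AEBP1 measured 6.66, 10.5 and 17 CPM against 0.955, 1.33 and 1.07 CPM and 11 ± 0.752 and 1.39 ± 0.668 CPM in siCHD4 and siCHD3, so that siCHD4 lay with the first set and siCHD3 with the second. HCN2 measured 22.1, 34.4 and 82.8 CPM against 3.38, 5.15 and 7.29 CPM, with siCtrl3 the highest. CHRNB2 (an acetylcholine receptor subunit), FRG2C (a multicopy gene) and GSTT1 (a glutathione transferase) lay at 3.55 to 4.57, and SCARA3 at 3.22. With the GC offset each of these genes was still called, BTBD2 at 1.96 and HCN2 at 1.72. Without siCtrl4 or siCtrl5 all of them lost their calls (adjusted p up to 0.161).

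In the lists of lipid synthesis and glycolysis most called members were higher in the first set. SCD, the stearoyl-CoA desaturase, measured 579, 528 and 467 CPM against 142, 152 and 149 CPM, and 513 ± 15.5 and 333 ± 38 CPM in siCHD4 and siCHD3 (log2 difference 1.82 ± 0.20, edgeR adjusted p = 0.00536). Its exons have a GC content of 46.5%, and the GC offset left the difference at 1.80. Of 26 genes of cholesterol and fatty acid synthesis tested, SCD, LSS, DHCR7 and the regulators SREBF1 and SREBF2 were called higher in the first set and 0 in the second (median 0.66, or 0.31 with the GC offset). Calls dropped to 3 with the offset. Of 24 glycolysis genes, the glucose transporter gene SLC2A1, PFKL, PFKFB4 and ALDOC were called higher in the first set and SLC2A3 in the second (median 0.95, or 0.43 with the offset). ALDOC measured 185, 200 and 334 CPM against 65, 56.9 and 70.4 CPM (1.90 ± 0.29, 0.0119). SCD and ALDOC lost their calls without siCtrl4 or siCtrl5 (adjusted p up to 0.0837), and LSS, SREBF1, SREBF2, SLC2A1 and SLC2A3 without siCtrl2, siCtrl4, siCtrl5 or siCtrl6 (up to 0.123). PFKL, PFKFB4 and DHCR7 were lost without siCtrl3 as well (up to 0.169).

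Called interferon response genes were also mostly higher in the first set. Of 26 tested, IFIT1, OAS1, OAS3, OASL, IRF7 and BST2 were called higher in the first set and DTX3L in the second (median 0.48, or 0.36 with the GC offset, under which 8 and 1 were called). OAS1, an antiviral nucleotide synthetase, measured 3.35, 3.39 and 4.16 CPM against 1.18, 0.950 and 1.19 CPM (1.71 ± 0.26, edgeR adjusted p = 0.0109). IRF7, a transcription factor of the response, had 28, 30 and 42 counts against 0, 0 and 2, a ratio of 35 (exact 95% interval 9.44 to 293, counting error only). OAS1 lost its call without siCtrl4 or siCtrl5 (adjusted p = 0.0783 at most), OAS3 and IRF7 also without siCtrl6 (0.102 at most) and IFIT1, OASL and BST2 without siCtrl2, siCtrl4, siCtrl5 or siCtrl6 (0.185 at most). DTX3L lost its call without any of siCtrl2 to siCtrl6 (0.172 at most).

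Of 8 listed long noncoding RNAs tested 5 were called, and of 13 mitochondrial messengers 2, all higher in the second set. Where these RNAs lie in the cell was not measured. MALAT1, a long noncoding RNA of nuclear speckles, measured 7.96, 22.8 and 13.1 CPM against 235, 72.2 and 104 CPM (-3.24 ± 0.56, edgeR adjusted p = 0.0147). The same held over the whole tables, with 12.7 ± 0.813 CPM in siCHD4 and 62.7 ± 19 CPM in siCHD3. MALAT1 shares 83.7% of its exon bases with another annotated gene. NEAT1, which builds paraspeckles, measured 51.1, 167 and 138 CPM against 578, 316 and 283 CPM (-1.73, adjusted p = 0.0439), and with the GC offset its adjusted p was 0.0582. The other called RNAs were KCNQ1OT1, SNHG1 and SNHG12 (median of the 8 tested -1.38), and TUG1, SNHG5 and GAS5 had differences of -0.10, 0.34 and -0.93 and were not called. The 13 mitochondrially encoded messengers took 1.58%, 1.67% and 1.29% of the counts in the first set and 4.50%, 3.14% and 2.03% in the second. The exact permutation p was 0.1, the smallest that 3 against 3 libraries allow (two-sided). MT-ND1 and MT-ND2, subunits of respiratory complex I, were called at -1.16 and -1.28, out of 13 tested with a median of -1.05, and 1 of the 13 was called with the GC offset. Ribosomal protein genes took 4.18% to 6.57% and 3.80% to 4.95% of the counts, with overlapping sets (exact permutation p = 0.5). Calls of MALAT1, KCNQ1OT1, SNHG1, SNHG12, MT-ND1 and MT-ND2 were each lost without siCtrl4 or siCtrl5 (adjusted p up to 0.169), and NEAT1 without any of siCtrl2 to siCtrl6 (0.181). The call was lost without siCtrl2 also for SNHG1, SNHG12, MT-ND1 and MT-ND2, and without siCtrl6 for KCNQ1OT1 and MT-ND1.

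Of 28 melanoma drivers and suppressors tested, 2 were called higher in the first set, among them MAP2K2, a kinase of the MAP kinase pathway. MDM4 was called higher in the second (median of the list -0.23). Over all genes tested, 6.5% were called higher in the first set and 7.4% in the second. The driver counts lay near or under these shares. With the GC offset the shares over all genes were 4.15% and 9.55%. BRAF stood at 14.5 to 32.5 CPM and MYC at 60.2 to 77.9 CPM, with log2 differences of -0.39 and 0.01. Among 18 melanoma antigens and cancer-testis genes, PRAME and SSX1 were called higher in the first set and MCAM and SPP1 in the second. MCAM, a cell adhesion molecule of melanoma, measured 89.7, 110 and 116 CPM against 213, 275 and 267 CPM (-1.26 ± 0.23, edgeR adjusted p = 0.016), and the siCHD4 libraries stood higher still at 371 ± 19.8 CPM. Of the stress genes of the ATF4 and unfolded protein response, SLC7A11, DDIT3 and DNAJB9 were called higher in the second set and SLC7A5 and DDIT4 in the first, out of 25. Of 22 hypoxia targets, 19 were tested, and ADM was called higher in the second set and BNIP3, P4HA2, SLC2A1 and DDIT4 in the first. Cell cycle lists held CHAF1A in S phase and PLK1 and MKI67 in mitosis, all higher in the first set, out of 24 and 25, near the 6.5% over all genes, and with the GC offset 0 of either list were called. The lysosome list held CTSB, LAMP1 and GAA, called higher in the first set out of 25 (0 with the GC offset). Collagen and matrix genes held LAMB2, HSPG2 and MMP14 in the first set and MMP1 in the second, out of 25 (median 0.73), whereas with the GC offset 1 and 4 were called and the median was 0.07. The integrin list held ITGA5 and ITGB8 in the second set out of 13. HIST2H2AC, B3GALT4, ACTB, MBP and NKD1 were called higher in the first set and CRYAB, ID2 and SERPINB2 in the second. They belong to the lists of histones (13 tested), ganglioside synthesis (8), housekeeping genes (16), Schwann cell markers (9), feedback targets (26), heat shock (14) and RT-qPCR genes (5). Beside 6.5% and 7.4% of all genes tested, so few calls were not read as results about these lists. DKK1, described above, was also called in the list of feedback targets. ITGA5 and DKK1 kept their calls in each fit without a library, and the other calls named here were lost without siCtrl4 or siCtrl5, most of them also without siCtrl2 or siCtrl6 (adjusted p up to 0.187). DDIT3 shares 31.6% of its exon bases with another gene.

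**Figure D5:**
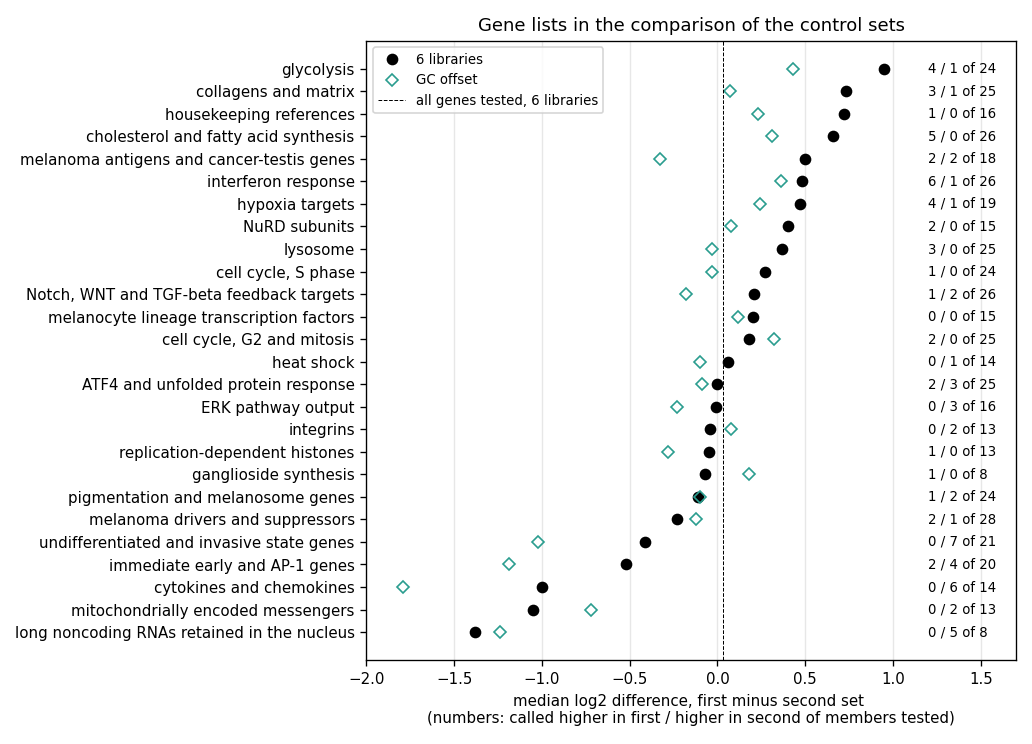
Median log2 difference (first minus second set) of the gene lists shown, each with 8 or more tested members, with 6 libraries (black) and with the GC offset (open diamonds), and the numbers called higher in the first and in the second set of members tested. Cytokines, long noncoding RNAs (a list labelled as retained in the nucleus, which was not measured) and mitochondrial messengers lie lowest, with medians of -1 to -1.38. Glycolysis lies highest at 0.95, where the GC offset gives 0.43.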

How the data were processed

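RNA of 501Mel cells was linearly amplified as cDNA and sequenced, and per the submitters' processing notes reads were trimmed with cutadapt 1.10, mapped to hg19 with TopHat2 2.0.10 and Bowtie2 (2.1.0 and 2.2.8 are named) and counted with HTSeq. The authors deposited raw read counts per gene, a normalized signal and a signal per kb of gene length in 2 tables. Their log2 fold change and p-value columns, also deposited by the authors, were not used. The strand setting of the counting was not given in the sources used here, nor was the annotation release.

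Counts were joined by Ensembl identifier. edgeR 4.0.16 (R 4.3.3) was run with filterByExpr, TMM and the robust quasi-likelihood test on the 6 control libraries, with p-values adjusted by Benjamini-Hochberg over the 15774 genes tested. Calls required an adjusted p below 0.05 together with a log2 difference beyond 1 in either direction. Gene lengths were those implied by the deposited signal per kb, exonic GC content and overlaps came from GENCODE on GRCh37, and the GC offset was a lowess trend per library (span 0.3). Set patterns used log2(CPM + 0.1). Shares of the library were compared with exact two-sided permutation tests. DESeq2 1.42.0 and other scalings and filters were alternatives. The scripts were tested on simulated data. Promoters came from RefSeq (GRCh38.p14), where 70.6% of the genes matched.

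Members and gene lists were chosen with earlier results of these data known. Genes were named by rule: the 20 highest levels, the lineage, pigmentation, undifferentiated, driver, NuRD, PADI and RT-qPCR lists, the 15 largest differences and 10 smallest p-values in each direction, up to 4 called members of each other list, and genes completing a count of 5 or fewer. IL1B, LIF, OASL, BST2 and the epithelial genes were named after their values were seen. Count intervals cover counting error only. Some genes that the rule names are not reported here. Metallothioneins, with 2 genes tested and 0 called, gave no result.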

Additional observations from a re-analysis of the deposited data

Results flagged for a closer look

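Of 40 genes named by rank in either direction and reported here, 29 had a difference between the control sets that was not the same as the difference between the silenced libraries of the same 2 tables, siCHD4 minus siCHD3. The test was an interaction term in an edgeR fit over all 12 libraries, with p-values adjusted over all genes, and the 2 differences share no library. Over all genes, 2431 of 17357 passed on adjusted p alone, and 2025 when all conditions for passing were applied. The 40 genes were chosen for the size or p-value of their control difference, which tilts their count, so the values are a description. The values that follow are the control difference minus the silenced difference on the log2 scale.

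Among genes higher in the first control set the values were FRG2C 4.33, EMC10 2.79, NRTN 2.34, CHRNB2 3.18, BTBD2 3.21, EVI5L 2.97, HCN2 3.88, FGFBP2 3.04, SNN 2.57, MARCH8 2.54, ENPP2 1.85, NUTF2 2.54, KIAA1671 1.58 and CHD8 1.86. In FGFBP2, SNN, MARCH8 and NUTF2 the value was close to the whole control difference, and the second control set alone lay low.

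Among genes higher in the second control set the values were DIRAS3 -5.28, IL11 -5.02, KRT81 -3.33, IL8 -1.88, EID3 -2.96, ANKRD1 -7.50, PDCL3P4 -3.85, DKK1 -2.79, GABRR2 -3.26, IGFN1 -4.03, C10orf54 -4.44, FAM151B -1.96, NGFR -3.14, IL24 -3.85 and SLAMF7 -4.09. ANKRD1 stood at 5.38 ± 1.2 CPM in siCHD4 and 0.613 ± 0.371 CPM in siCHD3, the reverse of the order in the controls. CHD4 or CHD3 silencing and the table cannot be told apart in the silenced libraries.

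Outside the joined genes, 19 genes had 1000 or more counts over siCtrl4, siCtrl5 and siCtrl6 and counts in the second table only. CASC15, a long noncoding RNA of the melanocyte lineage, had 2689, 2728 and 2018 counts, NUDT3 had 2598, 2842 and 1968, and GTF2H5, a subunit of the repair and transcription factor TFIIH, had 1822, 1803 and 1289. Counts for them in the first set were not analysed here.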

How the results depend on the processing

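The number of genes called higher in the first set (1025) was 1811 with DESeq2, 596 with a mean CPM of 1 or more, 655 with the GC offset, 659 with a GC and length offset, 2027 in a fit over 12 libraries and 640 with the GC offset and without siCtrl3, and 3 to 2695 when 1 library was left out. The number higher in the second set (1168) was 1991 over 12 libraries, 2042 with the GC offset and without siCtrl3, and 26 to 1754 when 1 library was left out. The share of calls higher in the first set, 46.7%, was 30.3% with the GC offset, 30.9% with GC and length, 23.9% with the GC offset and without siCtrl3, and 10.3% to 60.6% with 1 library left out, where upper-quartile factors gave 36.8%. The fits without siCtrl3 with the offset and over genes of equal length (868 and 1121 calls) were chosen after seeing the data. The Spearman correlation with GC content was 0.34 to 0.63 when 1 library was left out. The difference in the class of small and ribosomal RNA genes, -0.376 percentage points, was -0.0938 without the 10 most abundant genes. Of these 10, the mitochondrial ribosomal RNA gene MT-RNR2 belongs to that class. With exonic union lengths 11 of the 20 highest genes stayed. Of 155 called genes followed singly, 0 changed sign in any setting run; 125 kept their call with the GC offset, 25 without siCtrl4 and 18 without siCtrl5. The cause of these shifts was not tested. No paired analysis was possible because siCtrl1 to siCtrl3 and siCtrl4 to siCtrl6 share no replicate number. Depth limits the lowest genes: 1 count of PADI3 was worth 0.011 CPM in siCtrl1 and 0.0281 CPM in siCtrl3.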

Other observations

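Genes outside the melanocytic programme varied within the first set. CD44, a hyaluronan receptor, measured 0.0767, 2.49 and 2.56 CPM in siCtrl1, siCtrl2 and siCtrl3 and 0.171, 0.201 and 0.427 CPM in the second set, a log2 difference of 2.66 (edgeR adjusted p = 0.102). EGFR, the epidermal growth factor receptor, measured 0.110, 0.917 and 2.05 CPM against 0.147, 0.256 and 0.237 CPM. THBS1, a secreted matrix glycoprotein, had 0, 22 and 39 counts against 2, 3 and 2. KRT18, the partner of KRT8, measured 1.24, 3.28 and 9.2 CPM against 4.36, 4.46 and 5.41 CPM. In each of these siCtrl1 was the lowest of the 6 control libraries. Raw counts in siCHD4 and siCHD3 were 108, 110, 230 and 12, 6, 12 for CD44, and 122, 95, 324 and 14, 18, 15 for EGFR. They were 54, 18, 123 and 2, 2, 1 for THBS1, and 584, 324, 1513 and 133, 138, 42 for KRT18. The siCHD4 libraries, of the same table as siCtrl1, thus also held these RNAs. Silencing and table cannot be told apart there. These genes were singled out after their values were seen.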
